A study of Saccharomyces cerevisiae with 4 samples.

Results

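The galactose utilisation genes of the budding yeast Saccharomyces cerevisiae were described here as 7 genes, GAL1, GAL2, GAL3, GAL4, GAL7, GAL10 and GAL80, out of 5493 genes that held at least 1 array probe. They were found by name: a probe belonged to a gene if the array's own annotation placed it inside that gene, by symbol or by systematic name. That gave 44 of the 30279 probes inside genes, and 13 further probes were annotated to the members' promoters or downstream ends. All 7 genes passed every filter and were tested.

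Galactose enters the yeast cell through the permease Gal2 and is turned into a glucose phosphate by the Leloir pathway. In that pathway Gal1 is the kinase, Gal7 the uridylyltransferase and Gal10 the epimerase. Gal4 is the activator that binds upstream of these genes, Gal80 binds Gal4 and holds it inactive, and Gal3 senses galactose and releases Gal4 from Gal80. In glucose medium the structural genes are known to be repressed, in part through the repressor Mig1.

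The arrays were ChIP-chip arrays of RNA polymerase II, the enzyme that transcribes protein-coding genes. Chromatin fixed with formaldehyde was sheared, the fragments bound to a tagged subunit were collected, and their DNA (IP, in Cy5) was hybridised together with DNA of the whole-cell extract (in Cy3). Rpb3 belongs to the core of the enzyme, and Rpb4 belongs to a stalk that can leave it. The 4 arrays were 2 of an S288c strain with TAP-tagged Rpb3 and 2 of an S288c strain with TAP-tagged Rpb4. S288c is a standard laboratory strain, and the TAP tag lets IgG beads collect the protein that carries it. Both strains were taken in log phase (optical density about 0.8) from YPD, a rich glucose medium, at 25 °C, and fixed with 1% formaldehyde for 20 min. No culture in galactose and no untagged strain was analysed here, and each strain stands for 1 tagged line. Each subunit was read in 1 strain only, so a difference between the subunits cannot be told apart from one between the strains. Whether both arrays of a strain trace back to 1 culture is not stated, and the p-values therefore cover the spread between these arrays alone, which may be technical.

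A gene's level was the log2 ratio of IP over extract signal, averaged over the probes inside it. Each array's median probe was set to 0, so 0 stands for the median probe and not for an absence of polymerase. A gene was called below or above 0 if the limma test, adjusted by Benjamini-Hochberg over the 5490 genes tested, gave an adjusted p under 0.05. Errors after ± are standard errors of that fit, with 2 arrays a group. The fit gave each gene 1 spread shared by both groups. The errors and p-values of a group mean thus do not show the spread of that group's own arrays. The Rpb4 arrays lay closer to each other than the Rpb3 arrays: the median absolute difference over genes was 0.03 between the Rpb4 pair and 0.14 between the Rpb3 pair, and over the 44 probes inside the members it was 0.05 and 0.28. IP foreground stood at 72.9 to 125.9 times its background by the median, and extract foreground at 150.9 to 168.1 times. The a-cell receptor gene STE2 had a high mean level (3.04 for Rpb3 and 2.95 for Rpb4) and the alpha-cell receptor gene STE3 a low one (-0.89 and -0.95), so both strains carried the pattern of a cells. At some other strain loci the ratio differed. The levels of LEU2 (-0.97), MET17 (-2.01) and LYS2 (-1.96) were called lower in Rpb4, where 2.51% of all genes were. Their extract DNA was not low in Rpb4: it was called higher there (0.24, 0.26 and 0.59), where 3.32% of all genes were. In the ratio RPB3, RPB4, TRP1, HIS3, URA3 and ADE2 were not called different. In the extract RPB3 (-0.31), URA3 (-0.19) and ADE2 (-0.14) were called lower in Rpb4, where 5.54% of all genes were. RPB4 (0.15) and TRP1 (-5.77) were not called there. The extract signal of HIS3 (log2, median probe at 0) was -0.48 and -0.39 with Rpb3. With Rpb4 it was -4.80 and -10.98, a difference that was not called.

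In glucose medium the members lay at or below the median probe. For Rpb3, 5 of the 7 genes (GAL1, GAL2, GAL4, GAL7 and GAL10) were called below 0, where 29.2% of all genes tested were called below, and 0 of 7 were called above, where 38.4% were. For Rpb4, 4 of the 7 (GAL2, GAL3, GAL7 and GAL10) were called below, where 25.8% of all genes were, and 0 of 7 above, where 37.9% were. The median member level was -0.27 for Rpb3 and -0.38 for Rpb4, beside a median over all genes of 0.03 and 0.05. GAL2, GAL7 and GAL10 were called below 0 with both subunits. These calls are relative to the median probe. Centred on probes inside 62 meiosis and sporulation genes, the median gene moved to 0.62 with both subunits. Then 4 of the 7 members were called above 0 with each subunit, where 88.2% (Rpb3) and 88.9% (Rpb4) of all genes were, and 0 with Rpb3 and 1 with Rpb4 were called below, where 1.73% and 1.49% were.

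**Figure D1:**
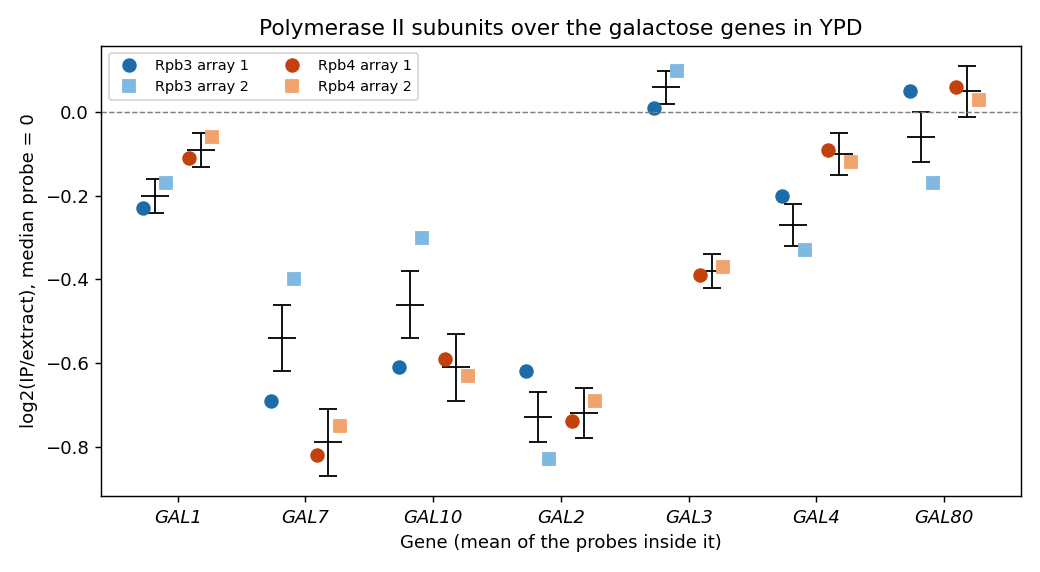
Level of each galactose gene on each of the 4 arrays: the vertical axis is the log2 ratio of IP over extract (mean of the probes inside the gene, median probe of the array at 0), points are single arrays, and the horizontal tick with bars is the group mean ± 1 standard error of the limma fit. GAL2, GAL7 and GAL10 lie below 0 on all 4 arrays, and GAL3 is the gene whose Rpb3 points (0.01 and 0.10) and Rpb4 points (-0.39 and -0.37) lie farthest apart.

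The permease gene GAL2 (YLR081W, chromosome 12, 6 probes from 290193 to 291711) had levels of -0.62 and -0.83 on the Rpb3 arrays and -0.74 and -0.69 on the Rpb4 arrays. All 4 values were low, and the groups overlapped. Its mean was -0.73 ± 0.06 for Rpb3 (limma adjusted p = 0.00134) and -0.72 ± 0.06 for Rpb4 (limma adjusted p = 0.00158). Between 1.8% and 3.1% of all genes lay lower than GAL2 on each array.

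GAL7 (YBR018C, chromosome 2, 3 probes from 274486 to 275200), the uridylyltransferase gene, had levels of -0.69 and -0.40 with Rpb3 and -0.82 and -0.75 with Rpb4. Both Rpb4 values were below both Rpb3 values. Its mean was -0.54 ± 0.08 for Rpb3 (limma adjusted p = 0.00592) and -0.79 ± 0.08 for Rpb4 (limma adjusted p = 0.00238), the lowest Rpb4 mean of the 7 members. GAL10 (YBR019C, chromosome 2, 8 probes from 276183 to 278237), the epimerase gene, had levels of -0.61 and -0.30 with Rpb3 and -0.59 and -0.63 with Rpb4. Its second Rpb3 array stood above the other three, and the groups overlapped. The mean of GAL10 was -0.46 ± 0.08 for Rpb3 (limma adjusted p = 0.00982) and -0.61 ± 0.08 for Rpb4 (limma adjusted p = 0.00476).

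GAL1 (YBR020W, chromosome 2, 6 probes from 278986 to 280524), the galactokinase gene and neighbour of GAL10, lay nearer to the median probe. Its levels were -0.23 and -0.17 with Rpb3 and -0.11 and -0.06 with Rpb4. All 4 were under 0, and the Rpb4 values were the higher ones, without overlap. Its mean was -0.20 ± 0.04 for Rpb3 (limma adjusted p = 0.0144), which was called, and -0.09 ± 0.04 for Rpb4 (limma adjusted p = 0.141), which was not. The Rpb3 call was lost when either Rpb4 array was left out (adjusted p = 0.100 both times) and with normexp background correction (adjusted p = 0.0813). The Rpb4 level of GAL1 was called below when either Rpb3 array was left out (adjusted p = 0.0226 both times), where 37.7% of all genes were called below.

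GAL7, GAL10 and GAL1 lie next to each other on chromosome 2, and the probes show how the ratio ran across them. The 3 GAL7 promoter probes averaged -0.75 and -0.90 on the Rpb3 arrays and -0.83 on both Rpb4 arrays, as low as the gene itself. In GAL10 the 4 probes nearest its start averaged -0.45 and -0.12 with Rpb3 and -0.41 and -0.45 with Rpb4. The 4 nearest its end averaged -0.77, -0.49, -0.78 and -0.81, lower on every array. GAL10 is transcribed toward GAL7, so its lower end is the one next to the GAL7 promoter.

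GAL1 and GAL10 are transcribed apart from a shared promoter, which held 2 probes. The probe 298 bases before the start of GAL1 read 0.09 and 0.25 with Rpb3 and -0.14 and -0.09 with Rpb4. The other, 159 bases before the start of GAL10, read -0.26 and -0.54 with Rpb3 and -0.24 and -0.35 with Rpb4. The first lay near 0 and differed in sign between the groups, while the second was under 0 on every array. Over all probes of divergent promoters the medians of the 4 arrays were -0.11, -0.12, -0.32 and -0.33.

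Within GAL1 the 3 probes nearest the start averaged -0.48 and -0.37 with Rpb3 and -0.18 and -0.16 with Rpb4, and the 3 nearest the end averaged 0.02, 0.02, -0.05 and 0.04. The end of GAL1 thus averaged near the median probe on all 4 arrays. On the second Rpb3 array its 3 probes scattered, at 0.38, 0.31 and -0.61. The genes that flank the cluster did not share its level. KAP104, which encodes a nuclear import receptor and lies beyond GAL7, read 0.08 and 0.00 with Rpb3 and 0.21 with both Rpb4 arrays, where it was called above 0 (limma adjusted p = 0.0151). FUR4, the uracil permease gene beyond GAL1, had a mean of 0.03 ± 0.09 with each subunit. Between KAP104 and GAL7 the ratio was already low: the KAP104 promoter probe from 274112 to 274171 read -0.89 and -1.36 with Rpb3 and -0.94 and -0.93 with Rpb4.

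**Figure D2:**
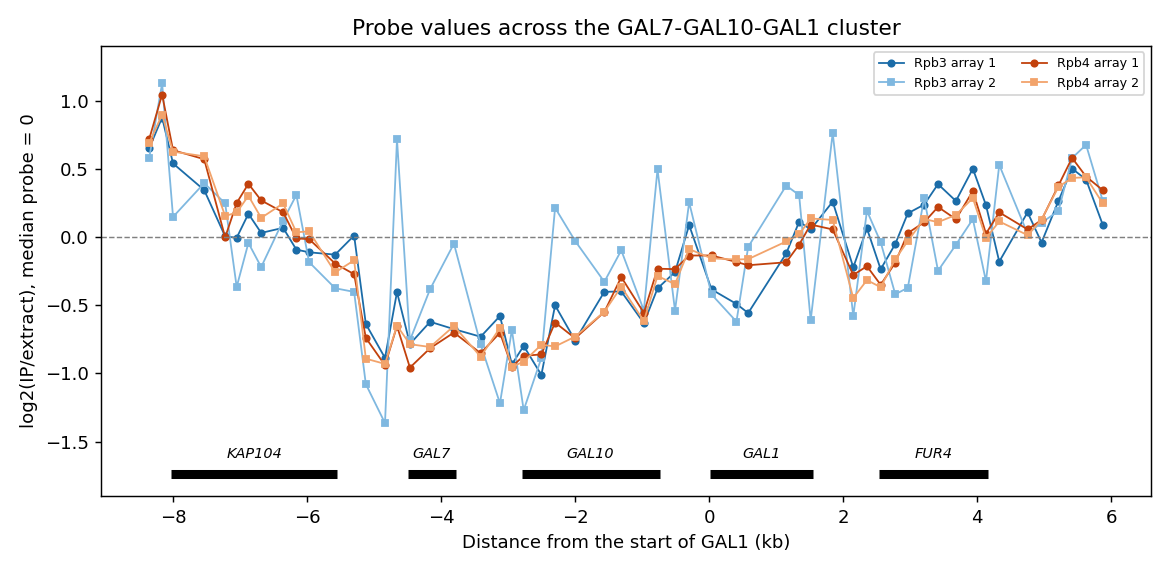
Log2 ratio of IP over extract at each probe of the chromosome 2 cluster on the 4 arrays, against the distance in kb from the start of GAL1; black bars span the probes inside each gene, and lines only join the probes of an array. The ratio is low from within the KAP104 promoter, beyond the end of GAL7, through GAL7 and GAL10, and returns to about 0 within GAL1. The second Rpb3 array scatters more from probe to probe than the other three, and reads 0.72 at the KAP104 promoter probe from 274291 to 274350, where extract signal is low.

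Around GAL2 the low ratio extended upstream. Its 2 promoter probes averaged -0.55 and -1.18 with Rpb3 and -0.62 and -0.51 with Rpb4. The upstream neighbour EMP46, a gene for a protein of the early secretory pathway, read -0.54 and -0.68 with Rpb3 and -0.42 and -0.43 with Rpb4, and was called below 0 for both subunits. Its probe farthest from GAL2 was the exception, above 0 on all 4 arrays (0.47 and 0.96 with Rpb3, 0.57 and 0.60 with Rpb4). The downstream neighbour SRL2 lay at -0.08 ± 0.05 and -0.05 ± 0.05 and was not called.

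The activator gene GAL4 (YPL248C, chromosome 16, 10 probes from 79764 to 82200) read -0.20 and -0.33 with Rpb3 and -0.09 and -0.12 with Rpb4. Both Rpb3 values were the lower ones, without overlap. Its mean was -0.27 ± 0.05 for Rpb3 (limma adjusted p = 0.0103), which was called, and -0.10 ± 0.05 for Rpb4 (limma adjusted p = 0.136), which was not. The Rpb3 call was lost when either Rpb4 array was left out, with the mean still at -0.27. The Rpb4 level was called below 0 after loess within arrays (-0.227, limma adjusted p = 0.0171), where 28.1% of all genes were. It was also called with quantile normalization (-0.111, limma adjusted p = 0.0467), where 30.4% were. With normexp background correction it was 0.016 and not called. Whether the Rpb4 level of GAL4 was called thus depended on the processing. The GAL4 promoter probe read -0.02 and -0.53 with Rpb3 and 0.06 and 0.04 with Rpb4, so it lay near 0 on 3 arrays and under it on the second Rpb3 array.

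GAL80 (YML051W, chromosome 13, 5 probes from 171713 to 172916), the gene of the repressor of Gal4, had levels of 0.05 and -0.17 with Rpb3 and 0.06 and 0.03 with Rpb4. It lay at the median probe, and it was not called for Rpb3 (-0.06 ± 0.06, limma adjusted p = 0.450) or for Rpb4 (0.05 ± 0.06, limma adjusted p = 0.550). Without the first Rpb3 array its Rpb3 level was -0.17, a value that rests on 1 array. The mean hides a gradient along the gene. The promoter probe, 87 bases before the start, read 1.34 and 1.29 with Rpb3 and 0.92 and 1.00 with Rpb4. Its extract signal (log2, median probe at 0) was low, at -1.465 and -1.64 with Rpb3 and -1.347 and -1.43 with Rpb4. Its IP signal also lay below the median probe, at -0.17 and -0.36 with Rpb3 and -0.46 and -0.47 with Rpb4. The high ratio there thus stood over low extract and not over a high IP signal.

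The first probe inside GAL80 was also high, at 0.82 and 1.32 with Rpb3 and 0.67 and 0.75 with Rpb4. The probe 716 bases into the gene read -0.39 and -1.16 with Rpb3 and -0.36 and -0.32 with Rpb4. Every array thus went from well above the median probe at the start to below it in the middle. These start probes, the promoter one over low extract, had the 2 highest ratios among the members' promoter and gene probes outside GAL3's upstream region. The upstream neighbour SUR7, a gene for a membrane protein of the cell cortex, was itself high (0.97 and 0.99 with Rpb3, 1.00 and 1.13 with Rpb4). With fragments of about 400 to 500 bases, signal of SUR7 and of the GAL80 start cannot be told apart at the probes between them.

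**Figure D3:**
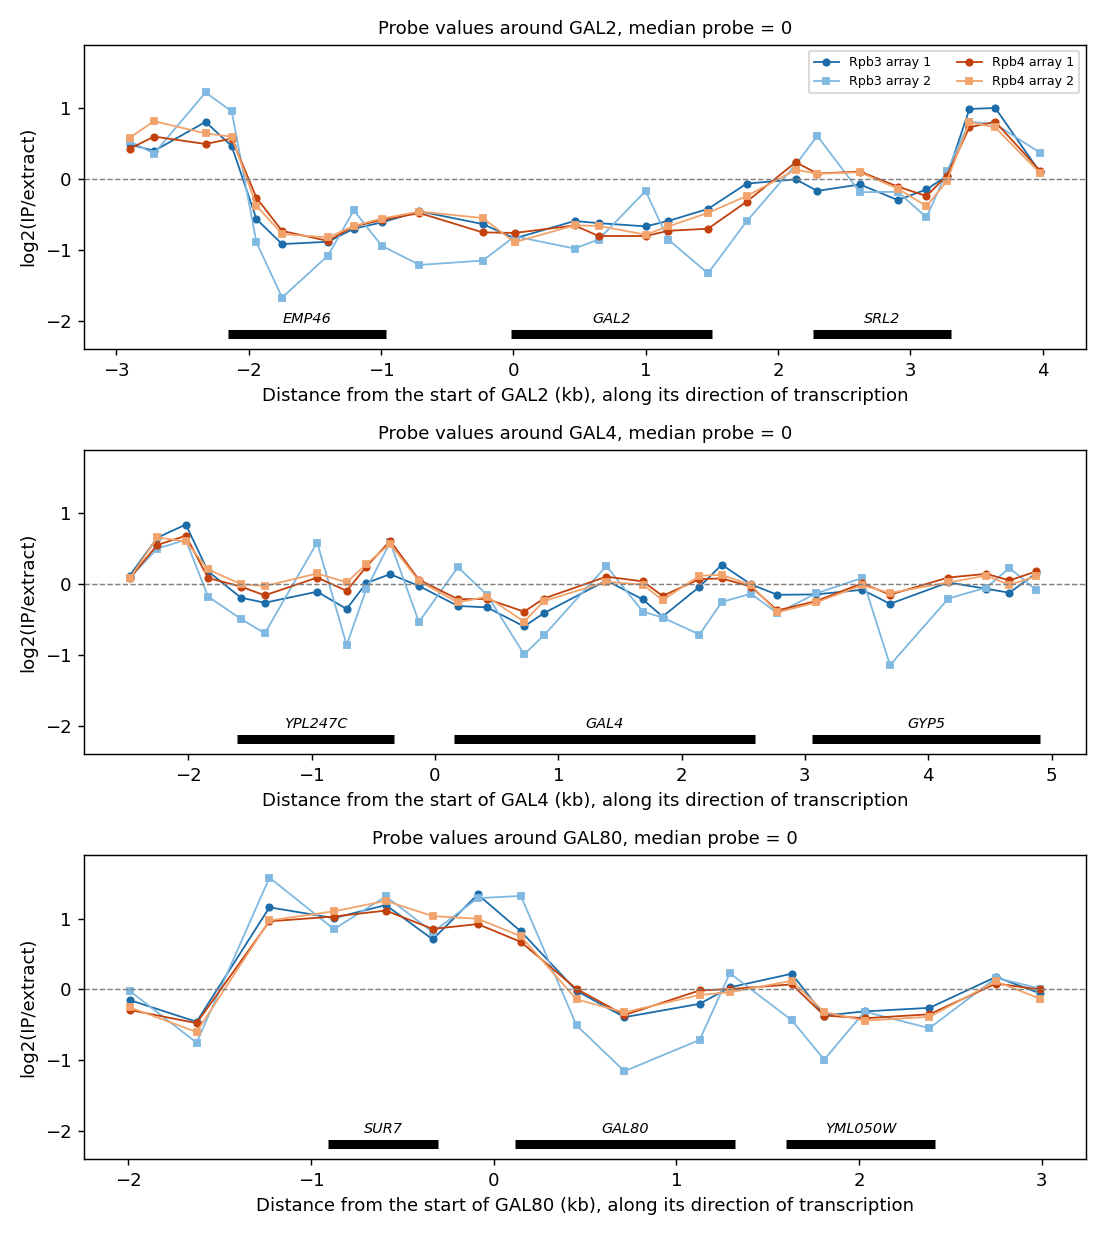
Log2 ratio of IP over extract at each probe around GAL2 (top), GAL4 (middle) and GAL80 (bottom) on the 4 arrays, against the distance in kb from the start of the named gene along its direction of transcription; black bars span the probes inside each gene. GAL2 and the part of its upstream neighbour EMP46 nearer to it lie below 0, GAL4 scatters around and under 0, and GAL80 starts between 0.67 and 1.32 and drops below 0 within the gene.

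GAL3 (YDR009W, chromosome 4, 6 probes from 463408 to 464918), the galactose sensor gene, was the member called different between the Rpb3 and Rpb4 arrays. It read 0.01 and 0.10 with Rpb3 and -0.39 and -0.37 with Rpb4. Subunit and strain cannot be told apart in this difference. The Rpb3 values sat at the median probe and the Rpb4 values clearly under it, without overlap. The Rpb3 mean of 0.06 ± 0.04 was not called (limma adjusted p = 0.314), and the Rpb4 mean of -0.38 ± 0.04 was called below 0 (limma adjusted p = 0.00287). The Rpb4 call was lost without the first Rpb4 array (adjusted p = 0.0824) and without the second (adjusted p = 0.0722). Taken as the median over its probes, the Rpb3 level was 0.28 and was called above 0 (adjusted p = 0.0191).

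GAL3 was 0.44 ± 0.06 log2 units higher with Rpb3 than with Rpb4, or 1.35-fold (limma adjusted p = 0.0493). It was 1 of 7 members called lower in Rpb4, where 2.51% of all genes were, and 0 of 7 were called higher, where 0.929% were. This call sits just inside the threshold. It was lost without the first Rpb4 array (adjusted p = 0.604) and without the second (adjusted p = 0.579), while the difference itself stayed at -0.43 and -0.45. Calls were few in those fits: 0.929% of all genes were called in either direction in the first, and 0 of 5491 in the second. It was also lost after loess within arrays (-0.36, adjusted p = 0.0523) and after centring on meiosis genes (-0.46, adjusted p = 0.0775). Over all 15 settings run the difference ranged from -0.72 to -0.36.

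The difference lay in the IP channel more than in the extract. Inside GAL3 the IP signal differed by -0.40 ± 0.06 in Rpb4 (limma adjusted p = 0.0620, not called), and the extract signal by 0.05 ± 0.02 (limma adjusted p = 0.258, not called). Of the 7 members 0 were called for a difference in the IP signal of the gene, where 2.97% of all genes were called lower in Rpb4 and 0.492% higher. For the extract signal of the gene 0 of 7 were called, where 5.54% were called lower and 3.32% higher. Along the gene the difference was larger near the end than near the start. The 3 probes nearest the start averaged -0.44 and -0.52 with Rpb3 and -0.55 on both Rpb4 arrays. The 3 nearest the end averaged 0.47 and 0.72 with Rpb3 and -0.24 and -0.19 with Rpb4, without overlap.

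The averages at the start hide opposite differences of single probes. The probe 7 bases into GAL3 read -0.75 and -0.98 with Rpb3 and -0.50 and -0.49 with Rpb4. Its difference was 0.37 ± 0.13 with Rpb4 the higher (limma adjusted p = 0.316, not called). The next, 426 bases in, differed by -0.07 ± 0.11. The probe 714 bases in read 0.03 and 0.06 with Rpb3 and -0.45 and -0.46 with Rpb4, a difference of -0.50 ± 0.11.

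From there to the end of the gene Rpb4 was the lower at every probe, on both arrays. The probe 1002 bases into GAL3 read 0.33 and 0.70 with Rpb3 and -0.46 and -0.40 with Rpb4. The last probe, 1459 bases in, read 0.62 and 0.75 with Rpb3 and -0.10 and -0.04 with Rpb4. The groups did not overlap at either, but 0 of the 57 member probes were called in the probe-level test of the ratio, where 0.736% of all probes were called lower with Rpb4 and 0.171% higher. The difference at the last probe was -0.76 ± 0.12 (limma adjusted p = 0.0842).

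The gene downstream of GAL3 had a difference of the same sign. SNQ2, which encodes a drug efflux pump, read 1.46 and 1.91 with Rpb3 and 0.98 and 0.94 with Rpb4. All 4 values were high and the Rpb3 values higher. Its difference of -0.72 ± 0.16 was not called (limma adjusted p = 0.112). The SNQ2 promoter probe 2139 bases from the start of GAL3 read 1.86 and 2.41 with Rpb3 and 1.29 and 1.12 with Rpb4. The part of SNQ2 in the values at the end of GAL3 was not tested.

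Upstream of GAL3 the extract DNA itself differed between the strains. In the Rpb4 extract 6 consecutive probes on chromosome 4, from 461832 to 463218, were lower by 3.03 to 6.30 log2 units than in the Rpb3 extract (limma adjusted p from 2.7e-05 to 0.0192, all 6 called). Such a deficit of over 2 log2 units with an adjusted p under 0.05 was found at 79 of 41563 probes, or 0.19%. The first 3 of the 6 lie in TRP1, a gene of tryptophan synthesis that laboratory strains often lack as a marker, and the last 3 are all the promoter probes of GAL3. The stretch spanned 1387 bases from first to last probe and, by its nearest unaffected probes, at most 1675 bases. The labels name the same parent strain for both groups and record no difference there.

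The GAL3 promoter probe 760 bases before the start had normalized extract signals of 5100 and 3313 on the Rpb3 arrays and of 222 and 29.7 on the Rpb4 arrays. Its normalized IP signals were 5251 and 4622 with Rpb3 and 404 and 117 with Rpb4. Both channels were low on both Rpb4 arrays, and the extract the more so. The extract difference there was -6.21 ± 0.81 (limma adjusted p = 0.00436). The ratio was 0.09 and 0.49 with Rpb3 and 0.90 and 2.01 with Rpb4, a higher reading where there was less DNA to read.

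The probe 580 bases before the start behaved alike, with ratios of -0.31 and 0.06 with Rpb3 and 0.57 and 1.60 with Rpb4, and an extract difference of -6.30 ± 0.78. The third promoter probe, 241 bases before the start, had ratios of -0.75 and -0.31 with Rpb3 and -0.60 and -0.59 with Rpb4. At that probe the extract difference was -3.03 ± 0.07 (limma adjusted p = 2.7e-05) and the ratios overlapped. The first probe inside GAL3, 7 bases from its start, was present in both extracts (-0.16 ± 0.05, limma adjusted p = 0.134). The loss thus ended between that probe and the promoter probes, and none of the 6 probes behind the level of GAL3 lay in it. Even so, the strain with the lower GAL3 level was the one whose extract was low in DNA just upstream. Whether this bears on the GAL3 level was not tested.

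The authors' bound-region flag marks probes that their own analysis took as bound, and it stood on 5.64% to 6.63% of all probes of an array. It stood on 0 of the 44 probes inside the 7 members on any array. Of their promoter and downstream probes it stood on 1, the GAL3 promoter probe 760 bases before the start, on both Rpb4 arrays and on neither Rpb3 array. In the whole stretch it stood on 3 and 4 of the 6 probes on the Rpb4 arrays and on 0 on the Rpb3 arrays. TRP1 itself had gene levels of 0.30 and 0.28 with Rpb3 and 1.86 and 4.24 with Rpb4, and its Rpb4 mean of 3.05 ± 0.58 was called above 0 (limma adjusted p = 0.0119) with an extract difference of -5.77 ± 1.12.

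**Figure D4:**
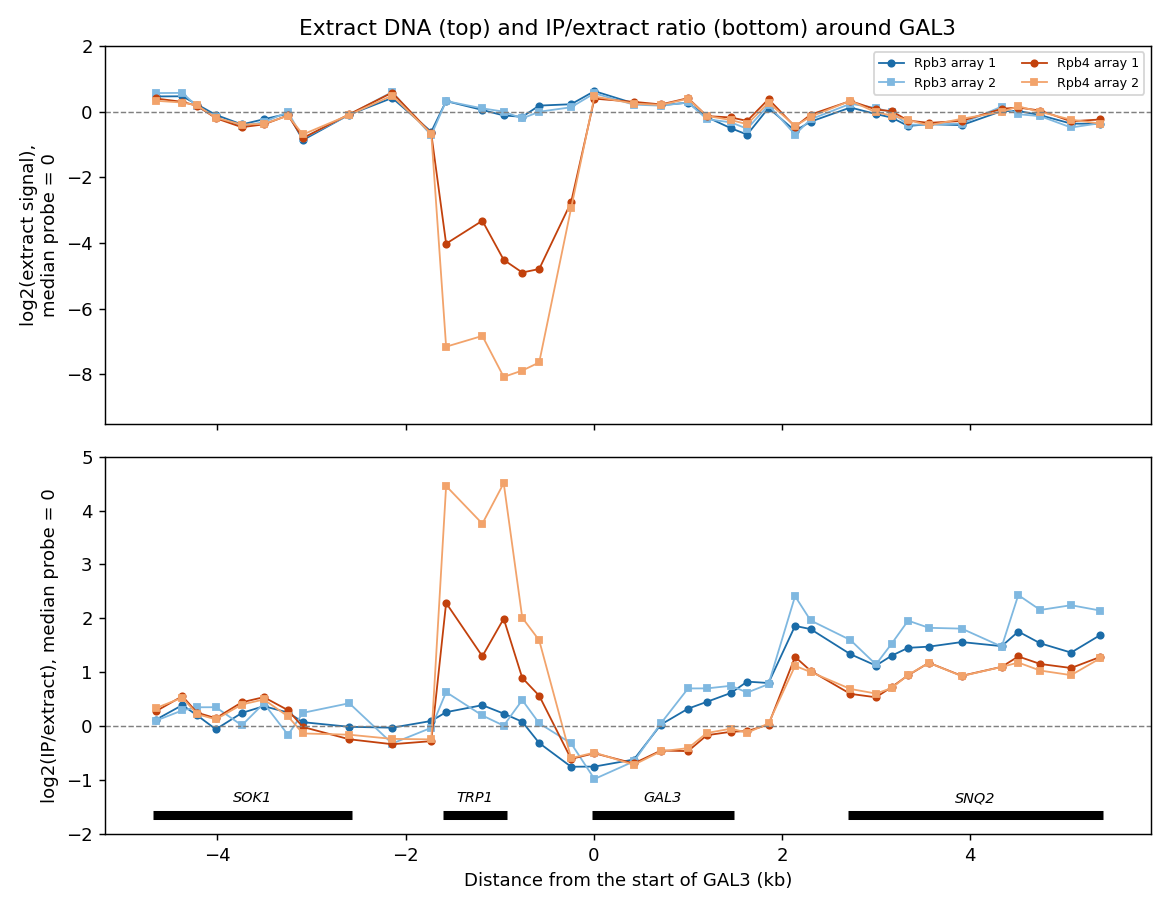
Extract signal (top, log2, median probe of the array at 0) and log2 ratio of IP over extract (bottom) at each probe around GAL3 on the 4 arrays, against the distance in kb from the start of GAL3; black bars span the probes inside each gene. The extract of both Rpb4 arrays drops by 3.03 to 6.30 relative to Rpb3 over 6 probes in TRP1 and the GAL3 promoter, the ratio is higher at 5 of those probes on the Rpb4 arrays than on the Rpb3 arrays, and at the end of GAL3 and over SNQ2 the Rpb3 arrays lie above the Rpb4 arrays.

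Smaller differences between the extracts were found at GAL2. Among all 57 member probes 6 were called for a difference in the extract signal, where 5.28% of all probes were called lower with Rpb4 and 2.91% higher: the 3 GAL3 promoter probes and 3 at GAL2. The GAL2 probe 1170 bases into the gene had an extract difference of -0.62 ± 0.05 in Rpb4 (limma adjusted p = 0.00119), with -0.61 in the IP and 0.02 in the ratio. The GAL2 promoter probe 232 bases before the start had -0.45 ± 0.07 (limma adjusted p = 0.00672), and the downstream probe had 0.24 ± 0.05 (limma adjusted p = 0.0242).

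Between the subunits the other members did not pass the test. The difference of Rpb4 from Rpb3 was -0.24 ± 0.12 for GAL7 (limma adjusted p = 0.321) and -0.15 ± 0.12 for GAL10 (limma adjusted p = 0.470). It was 0.16 ± 0.07 for GAL4 (limma adjusted p = 0.275) and 0.12 ± 0.06 for GAL1 (limma adjusted p = 0.335). For GAL80 it was 0.11 ± 0.09 (limma adjusted p = 0.506) and for GAL2 0.01 ± 0.09 (limma adjusted p = 0.949). The first Rpb3 array bears on these: without it, and with the lone Rpb3 array assumed to vary like the Rpb4 pair, 3 members were called lower (GAL3, GAL7 and GAL10) and 2 higher (GAL4 and GAL80). In that fit 29.0% of all genes were called lower and 33.6% higher, so calls were general there.

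In order of the Rpb3 means the members ran from GAL2 (-0.73) over GAL7 (-0.54), GAL10 (-0.46), GAL4 (-0.27), GAL1 (-0.20) and GAL80 (-0.06) to GAL3 (0.06). Each neighbour in that order overlapped the next over the Rpb3 arrays, except that GAL1 and GAL80 met at -0.17 to 2 decimals. For Rpb4 the order was GAL7 (-0.79), GAL2 (-0.72), GAL10 (-0.61), GAL3 (-0.38), GAL4 (-0.10), GAL1 (-0.09) and GAL80 (0.05). There GAL4 and GAL1 overlapped, and the other neighbours did not, although GAL7 and GAL2 differed by less than 1 standard error of GAL7. GAL3 stood at the top of the order with Rpb3 and in its middle with Rpb4.

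By probe, 27 of the 44 probes inside the members were below 0 on all 4 arrays, where 34.4% of all probes inside genes were, and 2 of 44 were above 0 on all 4, where 33.7% were. All 3 GAL7 probes and all 6 GAL2 probes belonged to the 27. The mean profile of the 4 genes for uptake and the Leloir pathway (GAL1, GAL2, GAL7 and GAL10) was -0.54 and -0.43 with Rpb3 and -0.57 and -0.53 with Rpb4. The nearest genes to it, by Euclidean distance over the 4 arrays, were CAT2 (carnitine acetyltransferase, distance 0.047), HXT8 (a hexose transporter family gene, 0.051), YPR078C (0.052), INO2 (an activator of phospholipid synthesis genes, 0.058) and DCN1 (a factor of cullin modification, 0.058). Within a distance of 0.3 lay 255 genes, and the median distance of all genes was 1.17.

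Other genes of galactose use and of glucose repression were 25 in all. For Rpb3, 14 of 25 were called above, 4 below and 7 neither, where 38.4% of all genes were called above and 29.2% below. For Rpb4, 15 were called above, 2 below and 8 neither, where 37.9% of all genes were called above and 25.8% below. Their median level was 0.23 for Rpb3 and 0.27 for Rpb4, beside 0.03 and 0.05 over all genes. HXK2, the hexokinase gene with a role in glucose repression, was the highest with both subunits, at 1.84 ± 0.08 for Rpb3 and 1.79 ± 0.08 for Rpb4. The repressor gene MIG2, the second by Rpb3 and below GLC7, PGM2 and CYC8 by Rpb4, was at 1.13 ± 0.07 and 0.77 ± 0.07, the phosphatase gene GLC7 at 0.94 ± 0.04 and 0.93 ± 0.04, and the corepressor gene CYC8 at 0.76 ± 0.06 and 0.83 ± 0.06.

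Several of the others above 0 in both groups act in glucose signalling. The corepressor gene TUP1 had means of 0.37 for Rpb3 and 0.58 for Rpb4. STD1, a regulator of glucose sensing, had 0.53 and 0.61, and the glucose sensor gene RGT2 had 0.33 and 0.48. The kinase gene SNF1 had 0.35 and 0.42, REG1, for a regulatory subunit of the Glc7 phosphatase, had 0.17 and 0.41, and the repressor gene NRG1 had 0.32 and 0.20. GCY1, whose promoter Gal4 is known to bind, had 0.67 and 0.64, the cyclin gene PCL10 0.43 and 0.54, and the peptidase gene LAP3 0.50 and 0.23. SNF4, for a subunit of the Snf1 kinase, was called above for Rpb3 only (0.23, against 0.11 for Rpb4), and SIP1, for another subunit, for Rpb4 only (0.27, against 0.12 for Rpb3). Neither difference passed the test (limma adjusted p = 0.282 and 0.245).

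The glucose sensor gene SNF3 was the lowest of the 25, at -0.74 ± 0.06 for Rpb3 and -0.59 ± 0.06 for Rpb4. MIG3, which encodes a zinc finger protein related to Mig1, had -0.59 ± 0.08 and -0.63 ± 0.08. These 2 were called below 0 for both subunits and lay at the level of GAL2, GAL7 and GAL10. GAL83, for a subunit of the Snf1 kinase, and MIG1 were called below for Rpb3 (-0.22 and -0.17) and not for Rpb4 (-0.13 and 0.15).

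PGM2, the gene of the phosphoglucomutase that takes up the product of the Leloir pathway, was the 1 gene of the 25 called for a difference between the subunits, where 0.929% of all genes were called higher in Rpb4 and 2.51% lower. It read -0.13 and 0.07 with Rpb3 and 0.87 and 0.88 with Rpb4. The Rpb4 values were far higher, without overlap. The difference was 0.90 ± 0.09 (limma adjusted p = 0.0229), of which the IP channel gave 0.57 ± 0.08 (limma adjusted p = 0.0556) and the extract, lower in Rpb4, -0.31 ± 0.03 (limma adjusted p = 0.00487). PGM2 thus lay opposite to GAL3 between the strains, and PGM1, the gene of the other phosphoglucomutase, was not called (-0.09 ± 0.09, limma adjusted p = 0.576).

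**Figure D5:**
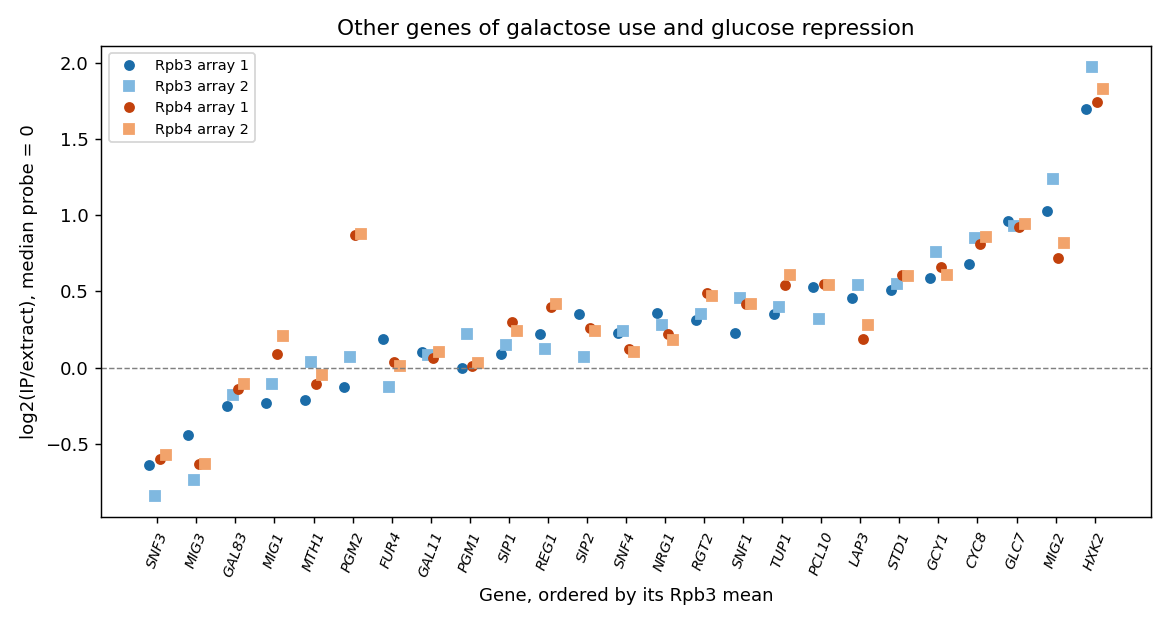
Level of the 25 other genes of galactose use and glucose repression on each of the 4 arrays: the vertical axis is the log2 ratio of IP over extract (mean of the probes inside the gene, median probe of the array at 0), and genes are ordered by their Rpb3 mean. SNF3 and MIG3 lie at the low end, HXK2 at the high end, and PGM2 has both Rpb4 points (0.87 and 0.88) far above its Rpb3 points (-0.13 and 0.07).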

How the data were processed

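Per the submitters' processing notes, the arrays were read with Agilent Feature Extraction 9.1. Per the file headers, the deposited array files give foreground and background intensity of each channel, normalized IP and extract intensity, a log2 ratio, an exclusion flag and a bound-region flag (0 or 1, used as deposited and as the authors' own call). On the values, the authors' normalized IP intensity was the foreground minus the background minus a constant of each array (10, 6, 7.25 and 5), and the extract was treated alike, with constants of its own, and multiplied by 1 factor per array (0.690, 0.446, 0.808 and 0.928). Their quotient on the log2 scale gave the deposited log2 ratio exactly. The deposited series table holds the same log2 values in the same direction (column medians -0.042, -0.0051, -0.035 and -0.040), and it names no probe, so it was not used further. The software behind these steps, and the build behind the positions, were not given in the sources used here.

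From the normalized intensities log2(IP/extract) was computed for 41775 data probes an array, leaving out 3444 control spots and the 100, 81, 149 and 179 probes with the exclusion flag, and centred on each array's median, with no loess or quantile step. Extract and IP signals were also centred singly. Gene levels and probes were fitted on all 4 arrays by lmFit and eBayes of limma 3.58.1, under R 4.3.3 (two-sided, Benjamini-Hochberg over all genes or probes). Names of 5478 genes came from the R64 gene table, and 15 genes kept the file's name. That gene table also served to check the members' names and to look up any listed gene not named in the array files. Offsets from gene starts are those of the files. Named genes were the members, their annotated neighbours, the list of 25 and the 5 nearest by profile. As a check of the strains, the mating-type markers STE2 and STE3 and the tagged loci RPB3 and RPB4 were read. The marker loci TRP1, HIS3, URA3, LEU2, MET17, LYS2 and ADE2 were read with them. Members and lists were chosen with earlier results of these data known. The fit was tested on simulated data. Cy5 always held the IP, hence a dye effect cannot cancel, and with all arrays on 1 slide no slide block could be fitted. The number of arrays limits the precision. Promoter, probe and protein sequences were not used here, so the planned motif search was not run.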

Additional observations from a re-analysis of the deposited data

How the results depend on the processing

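Of 280 values of single members under an alternative setting, the GAL3 difference aside, 236 kept direction and side of the threshold, 10 lost the call, 15 gained one and 19 changed sign. Centring on meiosis genes moved the members called below to 0 (Rpb3) and 1 (Rpb4), where 1.73% and 1.49% of all genes were. It moved those above to 4 and 4 (88.2% and 88.9% of all genes) and those lower in Rpb4 to 0 (2.09% of all genes). With it the GAL3 difference was -0.455 (adjusted p = 0.0775), the GAL2 difference turned to -0.006, Rpb3 levels turned positive for GAL1 (0.383), GAL4 (0.318), GAL7 (0.040), GAL10 (0.127) and GAL80 (0.525), and Rpb4 levels for GAL1 (0.481), GAL3 (0.185) and GAL4 (0.465). Loess left 0 members lower in Rpb4, where 2.28% of all genes were, with GAL3 at -0.364 (adjusted p = 0.0523) and the Rpb4 level of GAL80 at -0.065. Medians over probes gave 1 member above for Rpb3 (GAL3, 0.280), where 34.8% of all genes were, and GAL80 at -0.037 for Rpb4. Normexp gave 0.176 for GAL80 (Rpb3) and 0.016 for GAL4 (Rpb4). The GAL2 difference, near 0, was -0.025 when centred on probes inside genes, -0.109 with 1 spread and -0.098 with quantiles, and it was -0.094 without the second Rpb3 and -0.015 without the second Rpb4 array. Quantile normalization called 3 member probes for the ratio (923 of all probes).

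Leaving out each array in turn changed how many members were called, and the share of all genes called changed with it. It called 0 to 46 of 57 member probes: 46 without the first Rpb3 array, where 69.6% of all probes were called, 14 without the second (29.4%), 2 without the first Rpb4 array (1.26%) and 0 without the second (1.04%). It gave a GAL3 difference from -0.481 to -0.395, with the call lost without the first (-0.427, adjusted p = 0.604) and the second Rpb4 array (-0.449, adjusted p = 0.579). The Rpb3 level of GAL80 ran from -0.166 to 0.047 and the GAL2 difference from -0.094 to 0.117. The lone array left in a group is assumed to vary like the other group. The 3 GAL3 promoter probes low in the Rpb4 extract stayed 3 in all 6 alternatives run for them. Why results moved was not tested. Keeping excluded probes could give no value, because those probes have no positive signal. No paired analysis was possible because the labels give the arrays no replicate numbers. At the missing stretch the extract signal limits what a ratio can show.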
